A study of Mus musculus with 18 samples.

Results

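The 45 genes described here are a list of proliferation and cell cycle genes, 17 that act in S phase or its preparation and 28 that act in mitosis. They were chosen by name, and all 45 were found among the 29875 genes of the deposited count table and passed the filter on low counts, as did 13844 genes in all. RNA was measured in 18 libraries, with 3 replicates in each of 6 groups. Bone marrow cells of wild-type C57Bl6/J mice aged 8 to 12 weeks, male by the methods text, were grown into dendritic cells (DCs) with granulocyte-macrophage colony-stimulating factor and matured for 24 hours with lipopolysaccharide. The cells were then placed in migration chambers. By the methods text, RNA was taken 5 hours after a gradient of CCL19, a chemokine that attracts mature DCs, was set up. In 4 groups the chamber held bovine collagen gel, at 1.7, at 2.6, at 3.5 or at 4.4 mg/ml. In the other two groups the cells were in suspension without gel. By their labels, not all of these suspension libraries had CCL19. The titles of those groups and their library names contradict each other on which did. The groups are therefore called here by their titles, suspension titled plus CCL19 and suspension titled without CCL19. No direction with respect to CCL19 is given. Such cultures are a model in which DCs develop beside other myeloid cells, and the libraries hold RNA of everything that was in the chamber.

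A cell that divides copies its DNA in S phase and separates the copies in mitosis. S-phase genes such as those of the MCM helicase are switched on by E2F factors as a cell leaves G1, whereas genes of the spindle, the kinetochore and the mitotic kinases peak later, in G2 and M, under the DREAM and MuvB complexes that bind a promoter element called CHR. Mature DCs have stopped dividing, while the bone marrow precursors from which they are grown divide. In bulk RNA, fewer cells of a type and less RNA per cell cannot be told apart.

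The split of the list into S-phase and mitotic genes was visible in the letters of the promoters. A window of 250 bases before to 50 bases after the start of the gene was available from RefSeq (GRCm38.p6) for 39 of the 45 genes, 14 S-phase and 25 mitotic. Both strands were searched for TTTGAA (CHR), CCAAT (the CCAAT box) and the E2F letters TTTCCCG and their variants TTTCGCG and then TTTGCCG and lastly TTTGGCG, whose matches may overlap. TTTGAA stood in windows of 19 of 25 mitotic genes (76.0%) and of 1 of 14 S-phase genes (7.14%, Mcm2), against 20.2% of all 27025 genes with such a window (a gene with several windows counts once, with a match in any of them). The E2F letters stood in those of 7 of 14 S-phase genes (50.0%) and 5 of 25 mitotic genes (20%), against 7.65% of all genes. CCAAT stood in those of 64.3% of the S-phase and 80% of the mitotic genes, against 41.1% of all. A match of letters is a description and not a binding site.

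**Figure D1:**
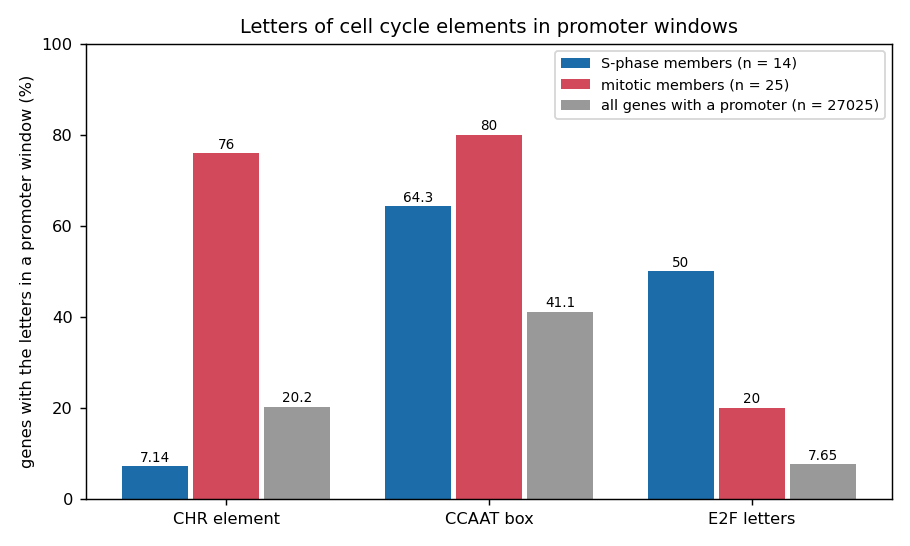
Share of genes (percent, vertical axis) with the letters of the CHR, the CCAAT box or E2F in a promoter window, for the 14 S-phase genes, the 25 mitotic genes and all 27025 genes with a window. The CHR bar of the mitotic genes (76.0%) stands far above that of the S-phase genes (7.14%), and for E2F the order is the opposite (20% and 50.0%).

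Windows of 6 genes are printed, those of the 3 genes that passed the test between gel and suspension (Pcna, Mcm3 and Cenpl), and of Mcm5, Mki67 and Cdk1 as a helicase gene and mitotic genes of common use. Capitals mark the CHR and E2F letters, read on either strand, and each sequence runs 5′ to 3′ along its gene, at chr2:132253131-132253430 (minus strand) for Pcna, chr1:20820263-20820562 (minus) for Mcm3, chr8:75109259-75109558 (plus) for Mcm5, chr1:161070517-161070816 (plus) for Cenpl, chr7:135716330-135716629 (minus) for Mki67 and chr10:69352863-69353162 (minus) for Cdk1.
Pcna: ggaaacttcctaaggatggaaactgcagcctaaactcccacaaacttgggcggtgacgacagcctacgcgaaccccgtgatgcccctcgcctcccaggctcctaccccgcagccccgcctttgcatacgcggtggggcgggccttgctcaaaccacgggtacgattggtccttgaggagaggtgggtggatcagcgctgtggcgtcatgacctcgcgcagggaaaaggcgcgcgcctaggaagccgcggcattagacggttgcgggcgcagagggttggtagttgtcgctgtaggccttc
Mcm3: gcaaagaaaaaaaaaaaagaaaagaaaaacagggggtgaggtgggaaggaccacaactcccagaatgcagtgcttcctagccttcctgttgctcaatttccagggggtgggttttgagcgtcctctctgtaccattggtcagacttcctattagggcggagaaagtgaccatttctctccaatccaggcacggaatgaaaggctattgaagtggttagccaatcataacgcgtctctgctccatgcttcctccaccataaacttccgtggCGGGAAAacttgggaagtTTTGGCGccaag
Mcm5: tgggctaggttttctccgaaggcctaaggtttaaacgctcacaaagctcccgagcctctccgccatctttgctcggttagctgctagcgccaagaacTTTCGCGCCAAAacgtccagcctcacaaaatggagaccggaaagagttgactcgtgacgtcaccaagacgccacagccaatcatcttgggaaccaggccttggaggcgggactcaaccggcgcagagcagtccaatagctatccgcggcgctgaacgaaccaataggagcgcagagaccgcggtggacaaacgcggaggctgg
Cenpl: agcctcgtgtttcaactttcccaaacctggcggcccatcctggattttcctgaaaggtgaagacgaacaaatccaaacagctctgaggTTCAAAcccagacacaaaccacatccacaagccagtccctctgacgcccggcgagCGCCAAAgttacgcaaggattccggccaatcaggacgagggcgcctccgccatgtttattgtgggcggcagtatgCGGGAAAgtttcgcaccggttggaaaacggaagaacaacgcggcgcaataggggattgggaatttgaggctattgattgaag
Mki67: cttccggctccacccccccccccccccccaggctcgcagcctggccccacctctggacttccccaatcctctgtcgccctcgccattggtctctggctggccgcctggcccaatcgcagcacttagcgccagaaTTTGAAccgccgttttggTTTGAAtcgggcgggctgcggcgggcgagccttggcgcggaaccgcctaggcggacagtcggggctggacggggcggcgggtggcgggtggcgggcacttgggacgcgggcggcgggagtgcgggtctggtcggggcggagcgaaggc
Cdk1: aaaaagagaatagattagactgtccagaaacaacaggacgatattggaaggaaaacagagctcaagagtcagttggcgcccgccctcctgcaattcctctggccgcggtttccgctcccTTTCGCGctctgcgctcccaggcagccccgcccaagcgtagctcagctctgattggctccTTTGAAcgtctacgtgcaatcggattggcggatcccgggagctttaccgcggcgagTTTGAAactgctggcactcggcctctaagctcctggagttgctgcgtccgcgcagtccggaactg

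The window of Pcna held neither CHR nor E2F letters, and those of Mcm3 and Mcm5 held E2F letters only. Mki67 held 2 copies of TTTGAA and no E2F letters. Cenpl and Cdk1 were among the 3 mitotic genes, with Cdca8, whose windows held both kinds of letters.

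The libraries held 13062944 to 28059839 counts, and 3 counts correspond to 0.107 to 0.230 CPM (gene counts scaled to a common library size). All 16 DC markers were detected in every library, with the antigen presentation chain Cd74 at 8420 to 31800 CPM and the CCL19 receptor Ccr7 at 2340 to 6430 CPM, and the 8 T and NK cell markers summed to at most 1.34 CPM. RNA of other myeloid cells was present, with 10 neutrophil markers summing to 1740 to 18840 CPM and 10 macrophage markers to 557 to 5665 CPM. Replicate numbers were shared across groups, and libraries of the same number also share a date and a sequencing lane in their names. Xist, the RNA that silences an X chromosome in females, had 380 to 5027 counts in replicates 1 and 2 and 0 counts in all 6 libraries of replicate 3. The counts in replicates 1 and 2 go against the stated male sex of the mice. In the library names, replicates 1 and 3 share a run code and replicate 2 has another. Replicate number, lane, date and culture cannot be told apart, and for replicate 2 neither can the run. Whether the replicates came from separate animals is not given in the sources used here, so p-values measure the spread between these libraries.

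The cell cycle genes were expressed at low to middling levels. A mean over 20 CPM was seen in 10 of them and a mean under 2 CPM in 7. Per kilobase of exon, the highest mean levels were those of Pcna, the sliding clamp of DNA polymerase (20.1 CPM per kb), of the helicase subunits Mcm6 (16.2) and Mcm5 (10.7), and of Cenpa, the histone of centromeres (9.78). The mitotic markers of common use were lower, Cdk1, the kinase that drives entry into mitosis, at 2.79 CPM per kb, Top2a, which untangles DNA, at 1.52, and Mki67, the Ki-67 antigen, at 1.27. Nuf2, of the kinetochore, and Cenpf, which binds it, had 0 counts in some libraries. Exons of 9 of the genes overlap a gene on the opposite strand (Ccna2, Ccne2, Cdc20, Cdca8, Mcm7, Nusap1, Plk1, Prc1 and Ube2c), by up to 22.8% of their length in Ube2c and 7.09% in Plk1, and whether the counting used strand is not given in the sources used here.

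The largest differences among these genes lay between replicates, not between gel and suspension. The mean log2 CPM of the 28 mitotic genes was 0.99 ± 0.22 in replicate 1, 2.56 ± 0.55 in replicate 2 and 2.15 ± 0.19 in replicate 3 (SD, n = 6 libraries each). That of the 17 S-phase genes was 3.43 ± 0.19, 4.23 ± 0.24 and 4.17 ± 0.22. In the fit with group and replicate, 38 of the 45 genes differed between replicates (edgeR quasi-likelihood test, false discovery rate (FDR) 0.1), 15 of 17 S-phase and 23 of 28 mitotic, against 48.3% of all genes tested. This test was added after the values were seen. The 6 libraries of a replicate share a date and lane, so p-values for replicate differences do not measure how far separate cultures vary.

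**Figure D2:**
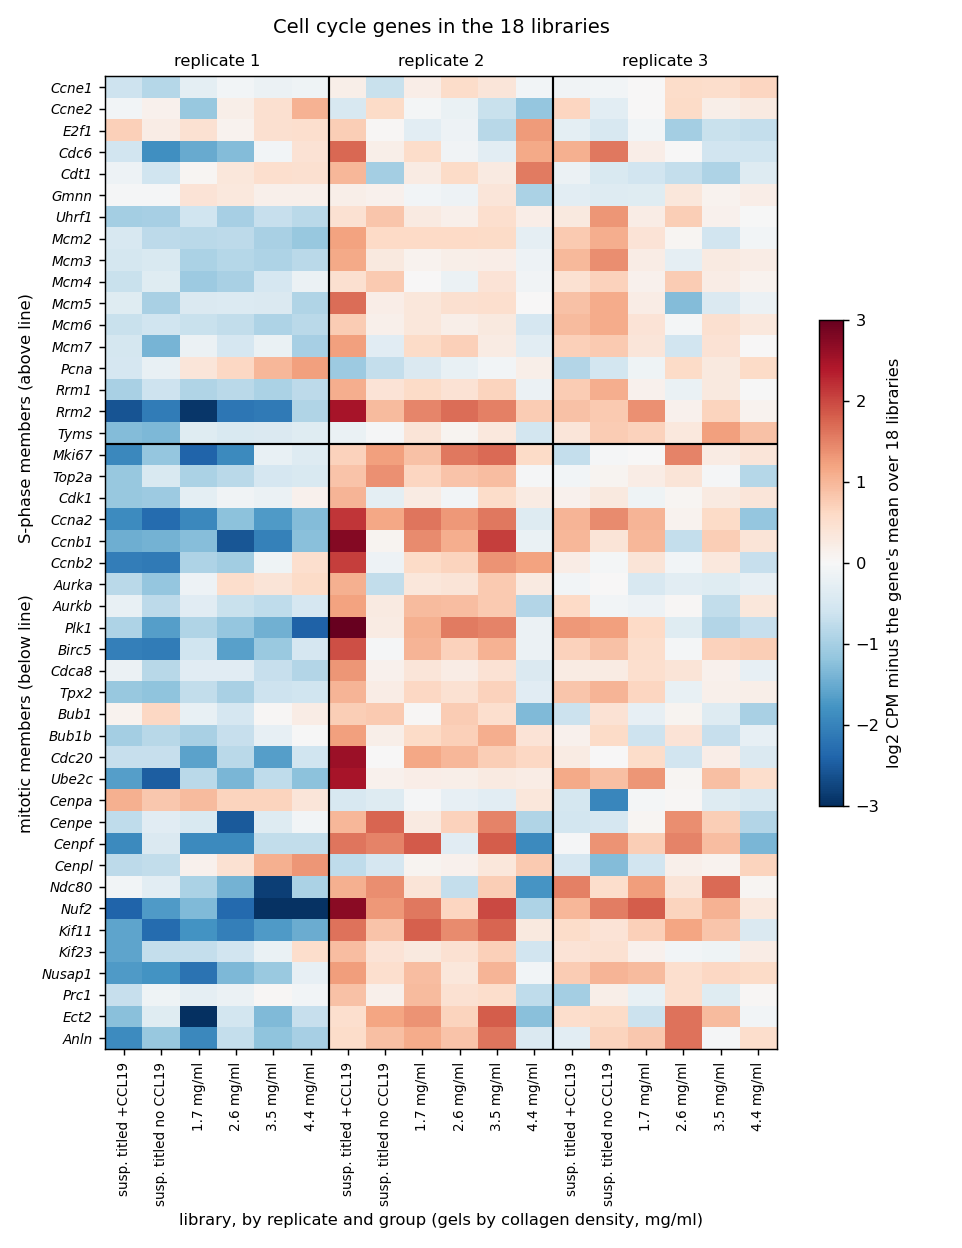
Level of each of the 45 genes (vertical, S-phase above the line and mitotic below it) in each of the 18 libraries (horizontal, by replicate and group), as log2 CPM minus the gene's mean, with the color limited to 3 in either direction. Most genes are below their mean in replicate 1, while Cenpa, Pcna and Cenpl are above it in several of those libraries, and suspension titled plus CCL19 replicate 2 has the deepest red for Plk1, Ccnb1 and Rrm2.

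Replicate 2 differed from replicate 1 in 37 genes, against 27.2% of all genes tested, and was higher in 35 and lower in 2, against 13.7% and 13.4%. The median log2 difference was 0.95 over the S-phase genes and 1.68 over the mitotic genes. The genes that fell were Pcna (-0.81, SE 0.151, adjusted p = 0.0011) and Cenpa (-0.95, SE 0.24, adjusted p = 0.009). Replicate 3 differed from replicate 1 in 36 genes (49.7% of all genes), higher in 31 and lower in 5, against 24.5% and 25.2%. Replicate 3 differed from replicate 2 in 7 genes, 1 higher and 6 lower, against 13.9% of all genes (6.3% and 7.63%). The highest replicate mean was that of replicate 2 in 24 of 28 mitotic genes, but in 7 of 17 S-phase genes.

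The counts by role are read against the same 13.7% of all genes higher in replicate 2 than in replicate 1 and 13.4% lower. Of the 7 genes that prepare S phase, 3 were higher, among them Uhrf1, which carries DNA methylation through replication (log2 difference 1.24, SE 0.213). In replicate 3 against replicate 1, where 24.5% of all genes were higher and 25.2% lower, 3 of these 7 were higher and 2 lower. E2f1, the replication inhibitor Gmnn and the licensing factor Cdt1 did not pass between replicates 2 and 1 (-0.23, -0.21 and 0.37). Of the 10 replication genes, 9 were higher and Pcna was lower. Rrm2, the inducible subunit of ribonucleotide reductase, had 0.385 to 1.90 CPM in the replicate 1 libraries, 6.23 to 20.8 CPM in those of replicate 2 and 3.95 to 9.56 CPM in those of replicate 3, and so replicate 1 did not overlap with the others (log2 difference of replicate 2 to 1, 3.64, SE 0.414, adjusted p = 1.8e-05). Rrm1, its constant subunit, differed by 1.35 (SE 0.204) and the helicase subunits Mcm2 to Mcm7 by 0.86 to 1.40.

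Every group of mitotic roles had members that were higher in replicate 2 than in replicate 1. All 4 of the Cdk1 and cyclin group passed, Cdk1 by the smallest amount (0.72, SE 0.251, adjusted p = 0.052) and the cyclins Ccna2 and Ccnb1 by 3.01 (SE 0.421) and 3.41 (SE 0.505). Of the 6 mitotic kinase genes and partners 5 were higher, with Plk1 at 2.89 (SE 0.407), while Aurka, the kinase of the centrosome, had 0.43 (adjusted p = 0.33). Of the 4 genes of the spindle checkpoint and the anaphase-promoting complex 3 were higher, and of the 6 spindle and cytokinesis genes 5. Kif11, the motor that pushes spindle poles apart, had 0.30 to 0.50 CPM in the replicate 1 libraries and 1.96 to 5.80 CPM in those of replicate 2 (3.38, SE 0.349, adjusted p = 6.5e-06). Of the 6 kinetochore genes 4 were higher, Cenpa was lower and Cenpl did not pass (-0.24, adjusted p = 0.41). Nuf2 showed the widest difference (4.72, SE 0.59), with 0 to 4 counts in each replicate 1 library, so that the fitted value depends on how counts near 0 are treated.

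Markers of several cell types also differed between the replicates. The 8 precursor markers summed to 32.4 to 68.9 CPM in replicate 1, 85.4 to 551 CPM in replicate 2 and 56.2 to 129 CPM in replicate 3, with none at 0 in any library, and 6 of the 8 were higher in replicate 2 than in replicate 1. The granule protease Elane had 0.502 to 2.16 CPM in replicate 1, 7.02 to 113 CPM in replicate 2 and 2.29 to 14.8 CPM in replicate 3. In contrast, the precursor markers Kit and Cd34 overlapped between replicates 1 and 2. Kit had 15.7 to 54.1 and 6.91 to 51.0 CPM, and Cd34 had 3.37 to 5.46 and 3.3 to 6.91 CPM. Of 10 neutrophil markers 7 were higher in replicate 2, and of 10 macrophage markers 8 were lower, against 13.7% and 13.4% of all genes. Of 8 basophil and mast cell markers 6 were higher in replicate 2 than in replicate 1 (median log2 difference 2.91). Their sum was 107 to 228 CPM in replicate 1, 193 to 476 CPM in replicate 2 and 86.5 to 235 CPM in replicate 3. All 6 B cell markers were higher in replicate 3 than in replicate 1, with sums of 28.6 to 55.8 CPM and 4.64 to 9.52 CPM. Of 16 DC markers 9 were higher and 1 lower in replicate 3 than in replicate 1, against 24.5% and 25.2% of all genes. The library of suspension titled plus CCL19 replicate 2 had the highest precursor, neutrophil and eosinophil sums. It was also the highest library for 15 of 28 mitotic and 6 of 17 S-phase genes. The part of these cell types in the difference between replicates was not tested. Without that library, 31 of the 45 genes still differed between replicates 2 and 1, against 21.8% of all genes in either direction, and 29 of the 31 were higher.

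**Figure D3:**
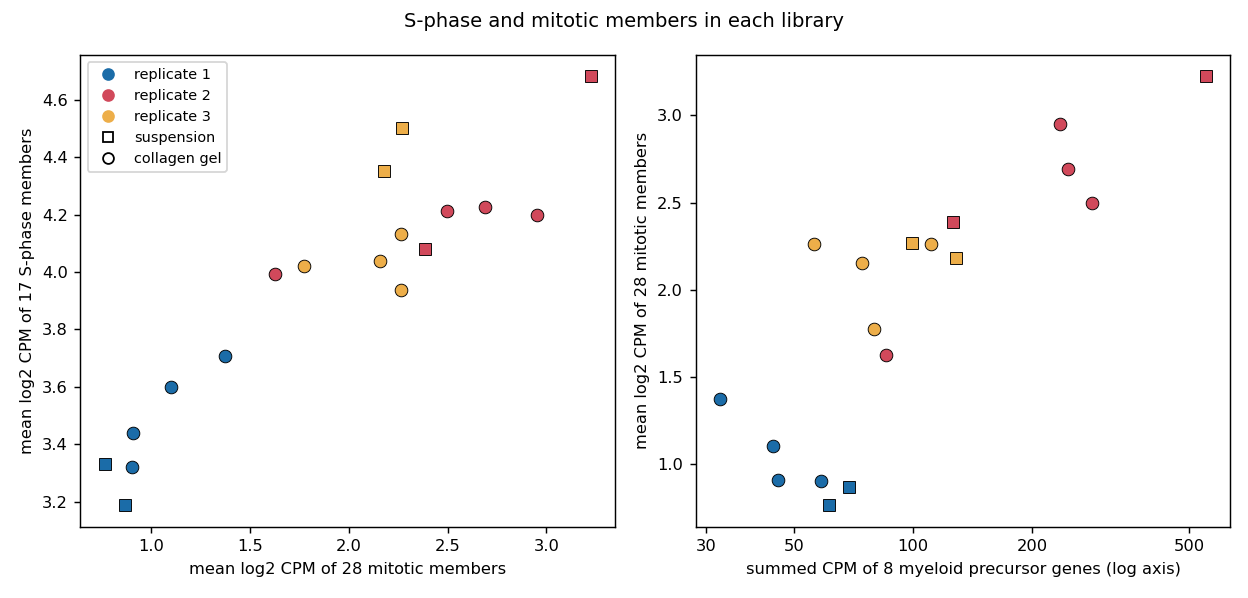
On the left, mean log2 CPM of the 17 S-phase genes against that of the 28 mitotic genes, and on the right the mitotic mean against the summed CPM of 8 precursor markers (log axis), with 1 point per library colored by replicate and squares for suspension. Replicate 1 lies at the low end of all 3 measures, and suspension titled plus CCL19 replicate 2 is the highest point of each (551 CPM for the precursor sum).

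Between gel and suspension, the question was whether cells in collagen differ from cells without it. Few of the cell cycle genes passed the test. Pcna and Cenpl, a protein of the inner kinetochore, were higher in gel and Mcm3, a helicase subunit, was lower, which makes 3 of 45 genes (2 of 17 S-phase and 1 of 28 mitotic), against 20.2% of all genes tested (7.78% higher and 12.4% lower). DESeq2 called 4 (24.7% of all genes), these 3 and Ccne1, the cyclin that starts S phase. The median log2 fold change was -0.30 over the S-phase genes and -0.21 over the mitotic genes, and 0.0027 over all genes. None of the 45 genes separated the 12 gel from the 6 suspension libraries entirely, against 0.506% of all genes entirely higher and 1.52% entirely lower.

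**Figure D4:**
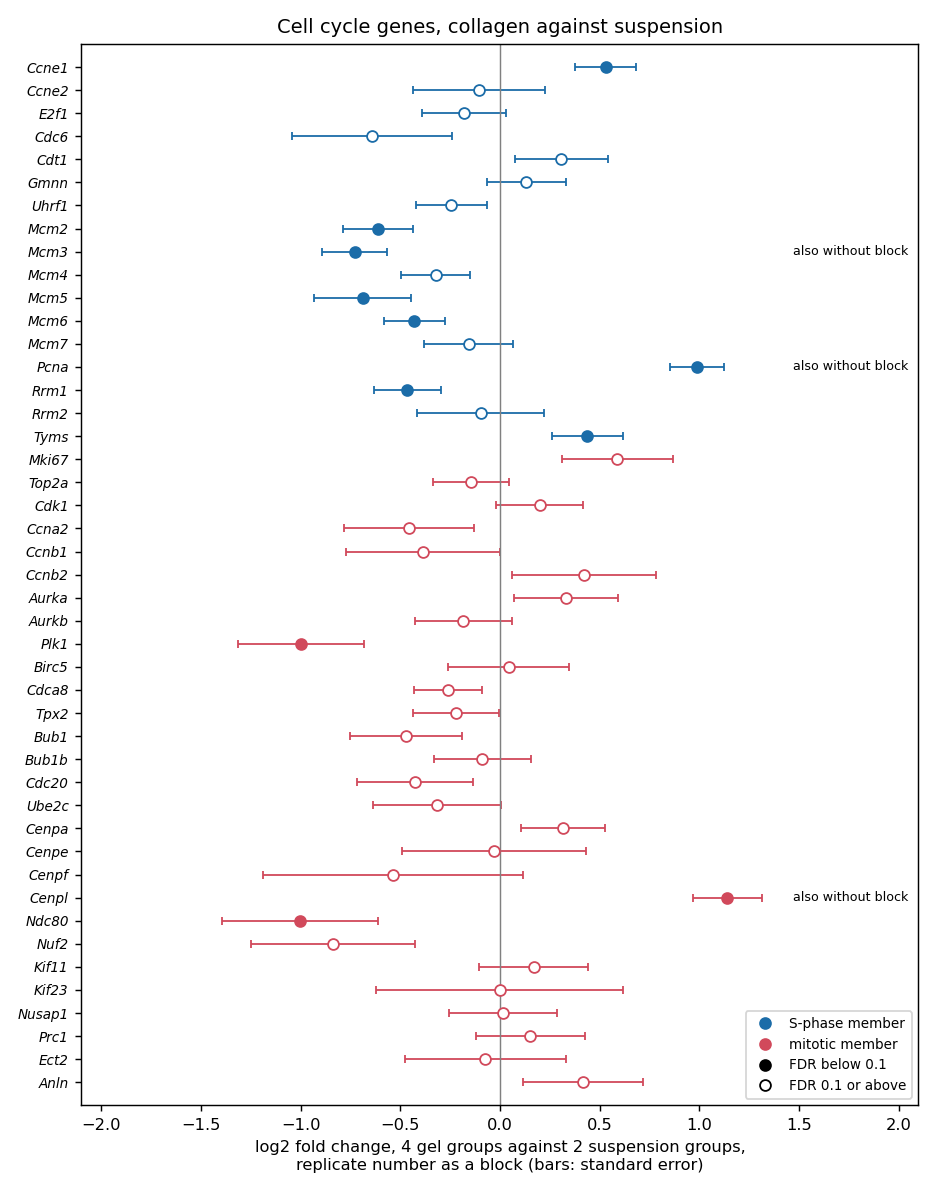
Log2 fold change of collagen against suspension (horizontal) for each of the 45 genes, from the fit with the replicate as a block, with bars for the standard error and filled points for an FDR below 0.1. The 11 filled points include Pcna and Cenpl near 1 and 4 helicase genes below 0, and the 3 genes that also passed without the block are marked.

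Pcna (ENSMUSG00000027342, chromosome 2, 132249162 to 132253314) had 31.0, 20.7 and 23.7 CPM in replicates 1, 2 and 3 of suspension titled plus CCL19 and 37.4, 26.8 and 30.02 CPM in suspension titled without CCL19. In gel it had 56.2, 32.6 and 40.1 CPM at 1.7 mg/ml, 68.0, 37.6 and 64.9 CPM at 2.6 mg/ml, 87.7, 41.2 and 53.3 CPM at 3.5 mg/ml and 103, 49.3 and 65.1 CPM at 4.4 mg/ml. Within each replicate, every gel library was above both suspension libraries, although the lowest gel value lay under the highest suspension value of another replicate. The log2 fold change was 1.03 (SE 0.226, adjusted p = 0.0075). It was 1.17, 0.75 and 1.04 within replicates 1, 2 and 3. Without replicate 3, Pcna had 1.02 and missed the threshold (adjusted p = 0.1).

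Cenpl (ENSMUSG00000026708, chromosome 1, 161070713 to 161086724) had 9.15, 9.37 and 11.1 CPM in the replicates of suspension titled plus CCL19 and 9.54, 11.1 and 6.43 CPM in suspension titled without CCL19. In gel it had 17.4, 16.7 and 10.6 CPM at 1.7 mg/ml, 21.9, 17.4 and 17.7 CPM at 2.6 mg/ml, 33.3, 20.1 and 17.2 CPM at 3.5 mg/ml and 39.8, 27.4 and 25.4 CPM at 4.4 mg/ml. Only 1.7 mg/ml replicate 3 overlapped with the suspension libraries. The log2 fold change was 1.17 (SE 0.207, adjusted p = 0.0022), and it was 1.501, 0.96 and 0.99 within replicates 1, 2 and 3. None of the other 5 kinetochore genes passed, with values such as -0.84 for Ndc80 (SE 0.556) and -0.86 for Nuf2 (SE 0.873).

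Mcm3 (ENSMUSG00000041859, chromosome 1, 20802968 to 20820312) had 21.9, 69.8 and 62.1 CPM in the replicates of suspension titled plus CCL19 and 23.0, 38.8 and 84.4 CPM in suspension titled without CCL19. In gel it had 16.5, 34.3 and 37.1 CPM at 1.7 mg/ml, 17.6, 35.7 and 26.2 CPM at 2.6 mg/ml, 16.7, 36.6 and 38.2 CPM at 3.5 mg/ml and 17.96, 28.6 and 36.8 CPM at 4.4 mg/ml. Every gel library was below both suspension libraries of its replicate, while across replicates the groups overlapped. The log2 fold change was -0.81 (SE 0.309, adjusted p = 0.093). Mcm3 no longer passed without suspension titled plus CCL19 replicate 2 (-0.67, adjusted p = 0.24), without 2.6 mg/ml replicate 3 (-0.80, adjusted p = 0.12) or without 4.4 mg/ml replicate 2 (-0.82, adjusted p = 0.11).

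**Figure D5:**
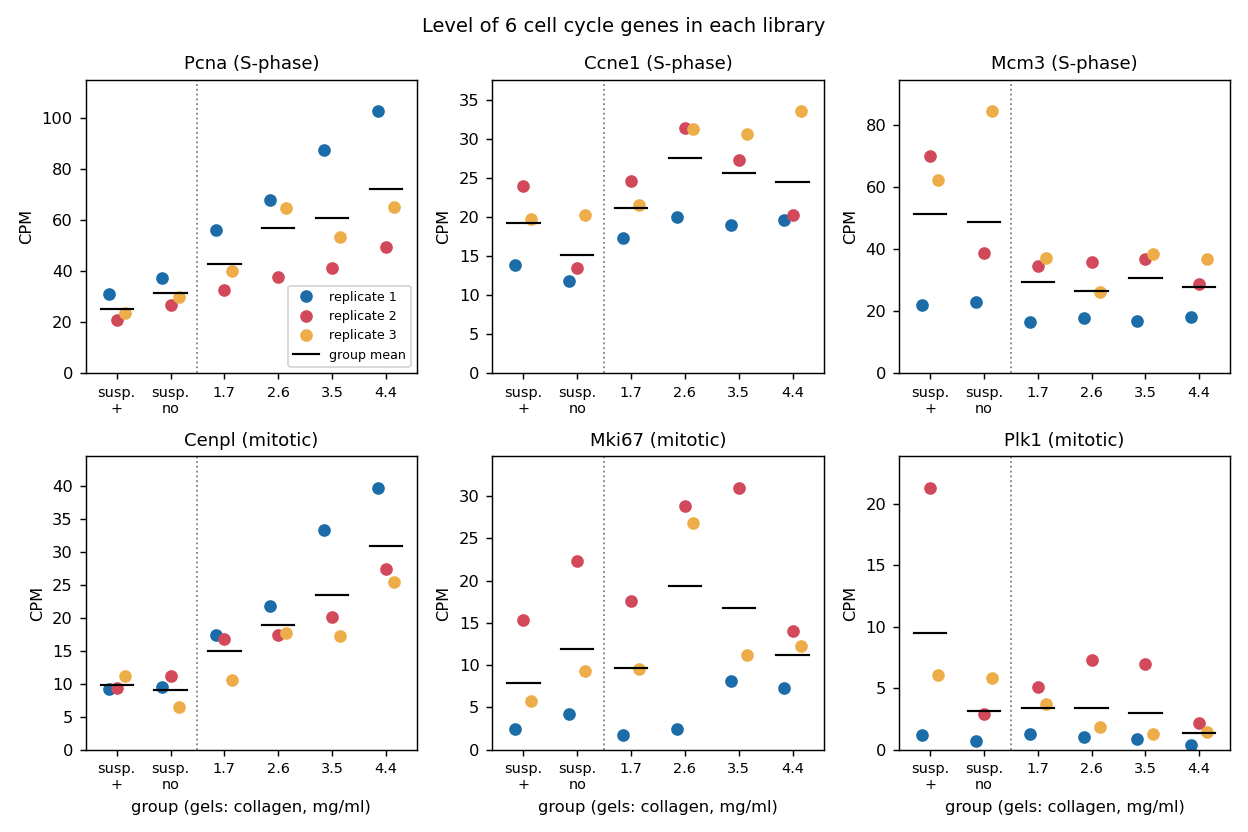
CPM of 6 cell cycle genes (linear axis from 0) in each library, by group (susp. + and susp. no are the suspension groups titled plus and without CCL19, and gels are given in mg/ml), with points colored by replicate and a line at the group mean. Pcna and Cenpl are higher at 4.4 mg/ml than in suspension in each replicate, Mcm3 is lower, and the single high Plk1 point is suspension titled plus CCL19 replicate 2 (21.3 CPM).

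With the replicate as a block, which removes the differences between replicates, 11 of the 45 genes passed between gel and suspension, against 34.8% of all genes (15.6% higher and 19.3% lower). They were 8 of 17 S-phase genes and 3 of 28 mitotic genes. Pcna (0.99, SE 0.136), Cenpl (1.14, SE 0.175), Ccne1 (0.53, SE 0.151) and Tyms, which makes thymidylate (0.44, SE 0.177), were higher. Mcm2 (-0.61), Mcm3 (-0.73), Mcm5 (-0.69), Mcm6 (-0.43) and Rrm1 (-0.46) were lower, and so were Plk1 (-0.997) and Ndc80 (-1.004). Without suspension titled plus CCL19 replicate 2, the block left 6, namely Ccne1, Mcm2, Mcm3, Pcna, Tyms and Cenpl. With the block and offsets for GC content and gene length 16 passed (36.8% of all genes), and Mcm2 was not among them (-0.36, adjusted p = 0.13).

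Mcm6 had 43.4, 116 and 132 CPM in replicates 1, 2 and 3 of suspension titled plus CCL19 and 45.3, 76.2 and 149 CPM in suspension titled without CCL19. In gel, Mcm6 had 43.3, 86.6 and 90.6 CPM at 1.7 mg/ml, 40.9, 78.2 and 66.2 CPM at 2.6 mg/ml, 35.9, 84.3 and 96.0 CPM at 3.5 mg/ml and 39.2, 48.4 and 86.2 CPM at 4.4 mg/ml. Every gel library lay below both suspension libraries in replicates 1 and 3, by little in replicate 1, and the groups overlapped in replicate 2. The gap between gel and suspension was -0.16 in replicate 1, -0.37 in replicate 2 and -0.74 in replicate 3 on the log2 scale.

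Mcm5 had 28.7, 118 and 68.5 CPM in replicates 1, 2 and 3 of suspension titled plus CCL19 and 18.7, 42.3 and 80.5 CPM in suspension titled without CCL19. In gel, Mcm5 had 27.4, 46.9 and 42.9 CPM at 1.7 mg/ml, 27.7, 51.5 and 15.02 CPM at 2.6 mg/ml, 27.4, 52.8 and 27.3 CPM at 3.5 mg/ml and 19.9, 37.6 and 32.9 CPM at 4.4 mg/ml. The highest value, in suspension titled plus CCL19 replicate 2, stood far above the other suspension library of that replicate, which lay among the gel libraries. Rrm1 had 17.9, 75.3 and 59.8 CPM in replicates 1, 2 and 3 of suspension titled plus CCL19 and 23.0, 46.8 and 75.1 CPM in suspension titled without CCL19. In gel, Rrm1 had 18.7, 52.4 and 38.5 CPM at 1.7 mg/ml, 19.99, 47.4 and 30.8 CPM at 2.6 mg/ml, 18.2, 56.4 and 43.0 CPM at 3.5 mg/ml and 20.4, 31.1 and 35.2 CPM at 4.4 mg/ml. Its gel and suspension libraries overlapped in replicates 1 and 2, while in replicate 3 every gel library was lower. Plk1, the kinase of mitotic entry and exit, had 21.3 and 2.87 CPM in the suspension libraries of replicate 2, titled plus and without CCL19, and 2.13 to 7.30 CPM in the gel libraries of replicate 2. The log2 difference of Plk1 between gel and suspension was -0.20, -0.68 and -1.59 within replicates 1, 2 and 3. In replicate 3 every gel library was below both suspension libraries. Without suspension titled plus CCL19 replicate 2, none of Mcm5, Mcm6, Rrm1, Plk1 and Ndc80 passed in the blocked fit of gel against suspension. Mcm5 was then at -0.53 (adjusted p = 0.17), Mcm6 at -0.37 (adjusted p = 0.14) and Rrm1 at -0.37 (adjusted p = 0.18). In the same fit at 4.4 mg/ml, Plk1 (-1.65, adjusted p = 0.032) and Ndc80 (-1.56, adjusted p = 0.097) still passed, lower in gel.

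The contrast of S-phase with mitotic genes in their response to gel depended on the replicate and on the summary used. The median log2 fold change of the S-phase genes minus that of the mitotic genes was -0.09, and within replicates 1, 2 and 3 this difference of medians was -0.0062, -0.067 and -0.14. The difference of means was 0.0024, 0.14 and -0.28 in the same replicates, and so changed sign. Without suspension titled plus CCL19 replicate 2 the difference of medians was -0.30, and without 2.6 mg/ml replicate 3 it was -0.011. The means themselves changed sign between replicates, with 0.26, -0.22 and -0.39 for the S-phase genes and 0.25, -0.36 and -0.11 for the mitotic genes. The direction of gel against suspension was the same in all 3 replicates for 9 of 17 S-phase genes (3 higher, 6 lower) and for 14 of 28 mitotic genes (4 higher, 10 lower). The share of all genes with such a shared direction was not computed, so whether these counts are unusual is not known. The error was larger for the mitotic genes, with a median SE of 0.527 against 0.318 for the S-phase genes (0.286 and 0.179 with the block), so a change of the same size was harder to detect among them.

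Mki67, Top2a, Cdk1 and Cenpa did not pass between gel and suspension, with or without the block. With the block and the GC and length offsets, however, Mki67 (0.58, adjusted p = 0.056) and Cenpa (0.45, adjusted p = 0.084) passed, higher in gel, and Mki67 also passed with the block without 4.4 mg/ml replicate 2 (0.68, adjusted p = 0.062). Mki67 had 2.40, 15.4 and 5.73 CPM in replicates 1, 2 and 3 of suspension titled plus CCL19 and 4.17, 22.3 and 9.33 CPM in suspension titled without CCL19. In gel, Mki67 had 1.70, 17.5 and 9.56 CPM at 1.7 mg/ml, 2.46, 28.8 and 26.8 CPM at 2.6 mg/ml, 8.16, 31.0 and 11.2 CPM at 3.5 mg/ml and 7.26, 14.1 and 12.2 CPM at 4.4 mg/ml. The groups overlapped in replicates 1 and 2, while in replicate 3 every gel library was higher, and the log2 fold change was 0.50 (SE 0.557, adjusted p = 0.61).

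Top2a had 5.47, 22.0 and 11.5 CPM in replicates 1, 2 and 3 of suspension titled plus CCL19 and 8.81, 31.3 and 12.8 CPM in suspension titled without CCL19. In gel, Top2a had 6.24, 18.9 and 14.2 CPM at 1.7 mg/ml, 6.84, 21.9 and 15.8 CPM at 2.6 mg/ml, 8.50, 23.1 and 11.9 CPM at 3.5 mg/ml and 8.84, 11.9 and 6.64 CPM at 4.4 mg/ml. Replicate 1 was lowest except at 4.4 mg/ml, where replicate 3 was, and the groups overlapped (-0.26, SE 0.361, adjusted p = 0.69). Cdk1 had 5.88, 26.5 and 14.2 CPM in replicates 1, 2 and 3 of suspension titled plus CCL19 and 6.07, 10.6 and 16.1 CPM in suspension titled without CCL19. In gel, Cdk1 had 10.6, 15.3 and 11.9 CPM at 1.7 mg/ml, 12.1, 12.2 and 13.4 CPM at 2.6 mg/ml, 11.6, 19.1 and 15.6 CPM at 3.5 mg/ml and 14.2, 15.5 and 16.8 CPM at 4.4 mg/ml. Suspension was lower in replicate 1 and overlapped with gel in the others (0.10, SE 0.268, adjusted p = 0.84).

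Cenpa had 108, 37.2 and 35.5 CPM in replicates 1, 2 and 3 of suspension titled plus CCL19 and 90.6, 39.2 and 13.2 CPM in suspension titled without CCL19. In gel, Cenpa had 98.9, 50.0 and 49.5 CPM at 1.7 mg/ml, 81.4, 43.5 and 52.8 CPM at 2.6 mg/ml, 82.0, 41.3 and 39.4 CPM at 3.5 mg/ml and 66.7, 65.4 and 36.7 CPM at 4.4 mg/ml. In contrast to most mitotic genes, Cenpa was highest in replicate 1 of every group. Gel and suspension overlapped in replicate 1 and over all libraries (0.13, SE 0.356, adjusted p = 0.85), while every gel library lay above both suspension libraries in replicates 2 and 3, where the log2 difference was 0.36 and 1.02. With the block the fold change was 0.32 (SE 0.209, adjusted p = 0.28).

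Eosinophil markers moved with gel against suspension. All 7 that were tested of the 8 listed were lower in gel, with a median log2 fold change of -3.05, and the list summed to 117 to 1339 CPM in suspension and 14.0 to 168 CPM in gel. Of the 8 precursor markers, Kit alone was lower in gel (-1.11, adjusted p = 0.0031), and the list summed to 61.3 to 551 CPM in suspension and 32.4 to 284 CPM in gel. Of 10 neutrophil markers 3 were lower (Ly6g, Retnlg and Cxcr2), and none of 10 macrophage markers passed, although 6 were higher with the block. These marker counts stand against 12.4% of all genes lower and 7.78% higher, and 15.6% higher with the block. The part of these cell types in the values of the cell cycle genes was not tested.

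Each density was also compared with the 6 suspension libraries, which these comparisons share. At 1.7 mg/ml no cell cycle gene passed, with edgeR or DESeq2 (1 gene at an unadjusted p under 0.05 in each), against 0.0361% and 1.02% of all genes. At 2.6 mg/ml Pcna and Cenpl passed, against 7.87%, and at 3.5 mg/ml the same genes, against 4.9%. At 4.4 mg/ml they passed again, against 14.8%, with log2 fold changes of 1.37 (SE 0.294, adjusted p = 0.0091) and 1.71 (SE 0.267, adjusted p = 0.0017). With the block 0, 4, 6 and 13 genes passed at the rising densities, against 2.91%, 21.6%, 18.4% and 31.9% of all genes. Those at 4.4 mg/ml were Ccne1, Cdt1, Pcna and Cenpl, higher, and Mcm2, Mcm3, Mcm5, Mcm6, Rrm1, Plk1, Cdca8, Ndc80 and Nuf2, lower. Without 4.4 mg/ml replicate 2 they were 5, namely Ccne1, Mcm2, Pcna, Plk1 and Cenpl. Without 2.6 mg/ml replicate 3, neither Pcna nor Cenpl passed at 2.6 mg/ml in the fit without the block.

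Among the gels alone, the trend with density was tested as the log2 change per mg/ml. No cell cycle gene passed with edgeR (2 at an unadjusted p under 0.05), against 0.00722% of all genes, and DESeq2 called Cenpl, against 0.881%. Cenpl had a mean of 14.9 ± 3.75 CPM at 1.7 mg/ml and 18.9 ± 2.52, 23.5 ± 8.60 and 30.9 ± 7.76 CPM at the next 3 densities (SD, n = 3), and its values ran in that order within replicates 1 and 2. Its slope was 0.38 (SE 0.114, adjusted p = 0.42), or 0.38 (SE 0.096, adjusted p = 0.084) with the block, against 1.45% of all genes. With the block it did not pass without suspension titled plus CCL19 replicate 2 (0.38, adjusted p = 0.11) or without 4.4 mg/ml replicate 2 (0.41, adjusted p = 0.13). Pcna had means of 43.0 ± 12.1, 56.9 ± 16.7, 60.8 ± 24.1 and 72.4 ± 27.5 CPM at the rising densities and a slope of 0.26 (SE 0.124, adjusted p = 0.69), or 0.25 (SE 0.0747, adjusted p = 0.13) with the block, and its values also ran in density order within replicates 1 and 2. The Pcna slope passed with the block and the offsets (0.23, adjusted p = 0.058) and with the block without 2.6 mg/ml replicate 3 (0.27, adjusted p = 0.054). Between 4.4 and 1.7 mg/ml no gene of the list passed with edgeR or DESeq2 (2 and 3 at an unadjusted p under 0.05), against 0.00722% and 1.06% of all genes, and with the block Cenpl alone did (1.05, SE 0.273, adjusted p = 0.083), against 1.73%, though no gene did with the block and without either of those libraries. Mcm3 had a slope of -0.0033 (SE 0.182).

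The replicates lay closest together at 4.4 mg/ml. The mean log2 CPM of the mitotic genes was 1.59 ± 0.20 there (SD, n = 3), and the SD was 0.86 to 0.93 at the other densities and 1.24 and 0.84 in the suspension groups. For the S-phase genes the SD was 0.17 at 4.4 mg/ml, 0.31 to 0.50 at the other densities and 0.70 and 0.67 in suspension. In replicate 2 the mitotic mean was 1.63 at 4.4 mg/ml against 2.39 to 3.23 in the other groups, while in replicate 1 it was 1.38 against 0.76 to 1.10. The precursor markers of 4.4 mg/ml replicate 2 summed to 85.4 CPM, the lowest of the replicate 2 libraries. The difference in spread was not tested.

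The suspension groups did not differ in any cell cycle gene with edgeR or DESeq2, without the block (0 at an unadjusted p under 0.05 with either), or with edgeR and the block (4 at an unadjusted p under 0.05), against 0% of all genes tested. The median SE was 0.526 for S-phase and 0.869 for mitotic genes, which limits what could be detected. The mitotic genes summed to 172, 353 and 189 CPM in the replicates of suspension titled plus CCL19 and to 158, 216 and 178 CPM in suspension titled without CCL19.

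Further cell cycle genes were taken from lists that hold none of the 45. Of 33 other replication genes tested 6 passed between gel and suspension (18.2%), against 20.2% of all genes. Slbp, which binds histone mRNA (0.79, adjusted p = 0.013), and Dbf4, which activates the origin kinase (1.301, adjusted p = 0.026), were among the 2 that were higher, and Pold1, the catalytic subunit of DNA polymerase delta (-1.35, adjusted p = 0.0019), and Rfc5 of the clamp loader (-0.59, adjusted p = 0.021) were among the 4 that were lower. Pold1 and Rfc5 act with the Pcna clamp, and they and Pcna had opposite signs. Of 52 other mitotic genes tested 5 passed (9.62%), Ckap2 higher (1.29) and 4 lower, among them Espl1, the separase (-1.36), Kif18b (-1.20) and the condensin subunit Ncapd2 (-0.82). With the block these counts were 11 (33.3%) and 19 (36.5%), near the 34.8% of all genes.

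Of 22 genes that restrain the cycle or exit from it, 6 passed (27.3%, against 20.2% of all genes), 4 higher and 2 lower (7.78% and 12.4% of all genes). Gadd45a, a stress-induced gene, had the largest change of those named (1.87, SE 0.345, adjusted p = 0.0028). The inhibitors of cyclin-dependent kinases Cdkn2b (0.92, adjusted p = 0.019) and Cdkn1a (0.72, adjusted p = 0.06) were higher, and Rbl2, a pocket protein of the DREAM complex (-0.54, adjusted p = 0.057), was lower. Of 15 genes of G1 and its transcription factors, only Cdk4 passed (-0.49, adjusted p = 0.066), and 4 passed with the block (26.7%, against 34.8% of all genes). Between replicates, 17 of the 33 replication genes and 31 of the 52 mitotic genes outside the list were higher in replicate 2 than in replicate 1, against 13.7% of all genes.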

How the data were processed

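The authors deposited whole-number read counts per Ensembl gene, 1 column per library. Their methods give poly(A)-selected stranded libraries read from a single end, and the submitters' processing notes name STAR 2.7.0f and GRCm38. The methods name RSEM for TPM values, which were not used here. Whether it also made these counts, and with which strand setting, is not given in the sources used here. Groups and replicate numbers came from the sample labels and the densities from the titles.

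Everything else was computed from the deposited counts in R 4.3.3 with edgeR 4.0.16 (TMM scaling, filterByExpr, quasi-likelihood F-test, 1 fit over all 18 libraries, calls at an FDR of 0.1 over all genes tested). The SE of a fold change is its size divided by the root of F. Library sizes for CPM were scaled by TMM, log2 CPM had a prior count of 2, and exon lengths and positions came from the GENCODE annotation of GRCm38. Biological variation between replicates (edgeR) came to 49%, or 33.1% when blocked on the replicate. Same-numbered libraries deviated together from their group means (mean r 0.434 over 45 pairs, 39 of them over 0.1, across genes). The mean r of -0.214 for libraries of other numbers largely follows from taking deviations from group means and is no separate comparison. The names of same-numbered libraries also share a date and lane, so the numbers pair them. The floors of 3 counts cover counting error only. The fits were also run on simulated counts that varied less between libraries than these data and in which no gene with very low counts was changed. That run gives no error rate for the calls made here.

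The members and all lists were chosen with earlier results of these data known. Values in every library were given for the 4 S-phase and 4 mitotic genes with the highest mean CPM, for Mki67, and for up to 6 genes with the smallest adjusted p among those called between gel and suspension or in the density trend, and other lists by counts and up to 4 genes with the smallest adjusted p. Genes named for the replicate differences, for calls of the blocked fit and for marker changes were chosen after their values were seen. Alternatives were DESeq2 1.42.0, its size factors in edgeR, no filter, the replicate block, offsets for GC content and length (loess, span 0.5), an FDR of 0.05, other control libraries and each replicate left out. Leaving out single libraries and testing the replicate number were added after seeing the data.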

Additional observations from a re-analysis of the deposited data

Results flagged for a closer look

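The summed level of the 28 mitotic genes in suspension titled plus CCL19 replicate 2 was 353 CPM, far from the other 5 suspension libraries, which had 158 to 216 CPM. Its gap to the nearest of them was 0.702 of the range of the 6 libraries, above Dixon's critical value for groups of that size. None of the other 11 levels tested in this way, those of single genes and the S-phase sum, had such a library. Chance alone gives about 1 such library in 20 groups. The same library had the highest sums of precursor markers (551 CPM), of neutrophil markers (18840 CPM) and of eosinophil markers (1339 CPM). The cause was not tested.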

How the results depend on the processing

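Depth and the spread between replicates limit these results. With the replicate block, which uses the pairing of the libraries, 11 genes were called between gel and suspension, against 34.8% of all genes. At the rising densities 0, 4, 6 and 13 were called, against 2.91%, 21.6%, 18.4% and 31.9%. The density trend gave 1, against 1.45%, and the densest against the loosest gel gave 1, against 1.73%. The block changed no call between the suspension groups. Block with GC and length offsets gave 16 between gel and suspension, against 36.8% of all genes. It gave 6, 4 and 14 at the 3 denser gels, 2 for the trend and 2 for the densest against the loosest gel. Where no share of all genes is given, a count shows only how calls moved, not whether these genes moved more than others. The block without suspension titled plus CCL19 replicate 2 gave 6 between gel and suspension, 4, 4 and 10 at the 3 denser gels, and 0 for the trend and for the densest against the loosest gel. The block without 4.4 mg/ml replicate 2 gave 12, and 1, 7, 7 and 5 at the rising densities, and again 0 for the trend and for the densest against the loosest gel. The block without 2.6 mg/ml replicate 3 gave 12, and 1, 3, 7 and 13 at the rising densities, 2 for the trend and 2 for the densest against the loosest gel. Without a filter on low counts 5 were called between gel and suspension, 1 at 2.6 mg/ml and 7 at 4.4 mg/ml. An FDR of 0.05 left 0 at 2.6 mg/ml and 1 at 3.5 mg/ml, DESeq2 called 1 in the trend, and with only suspension titled without CCL19 as control 1 was called between gel and suspension. Leaving out a replicate or a library gave 1 to 4 genes between gel and suspension, 0 to 2 at 2.6 mg/ml, 0 to 2 at 3.5 mg/ml and 0 to 4 at 4.4 mg/ml.

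The S-phase minus mitotic difference of medians, -0.09, ranged from -0.30 without suspension titled plus CCL19 replicate 2 to -0.011 without 2.6 mg/ml replicate 3, and was -0.16 without 4.4 mg/ml replicate 2. With the block these were -0.25, 0.0081 and -0.25. Values that changed sign, not called in the settings where they did, were those of Cenpa (from -0.055 to 0.65 over the replicates left out), Cdk1 (-0.11 without replicate 1) and Top2a (from -0.34 to 0.030 over the replicates left out, and 0.045 without suspension titled plus CCL19 replicate 2). Cenpl was called between gel and suspension in every setting run for single genes. Mcm3 was not called with DESeq2 size factors (adjusted p = 0.1) or without replicate 2 (0.33) or 3 (0.41), in edgeR. Of the other single-gene values under alternatives, 134 kept their side of the threshold and 23 passed it where they had not. The causes were not tested.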
